A study of Mus musculus and Homo sapiens with 12 samples.

Results

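The translation initiation factors (eIF) and elongation factors (eEF) were examined at the transcript level in blood progenitors that had lost DDX21, an RNA helicase of the nucleolus that acts in ribosome production. The set holds every gene whose symbol starts with EIF1 to EIF6 or with EEF1 or EEF2, without the eIF2 kinases, the Y-linked mouse copy of eIF2 gamma and pseudogenes. It has 69 symbols, of which 61 were found among 55487 mouse genes and 64 among 78932 human genes, and 56 were found in both. The rule itself uses symbols and no measured value, but the set was chosen with earlier results of these data known. The mouse libraries came from sorted lineage-negative, Kit-positive (LK) cells of fetal liver at E13.5. All mouse embryos carried the loxP-flanked Ddx21 alleles (Ddx21f/f). The 3 WT libraries carried these alleles alone and the 3 cKO libraries carried Vav-Cre as well, so the presence of Cre and the loss of Ddx21 cannot be told apart. Vav-driven Cre acts in blood cells, and how many embryos went into a library is not given in the sources used here. The human libraries came from blood stem cell-like cells made from H1, 1 embryonic stem cell line. These were transduced with a lentivirus carrying mCherry and either a control hairpin (shNC, 3 libraries) or a hairpin against DDX21 (shDDX21, 3 libraries). Live cells positive for CD34, CD45, CD43 and the vector were sorted 2 days later.

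Translation of most mRNAs begins when eIF4F, made of the cap-binding protein eIF4E, the scaffold eIF4G and the helicase eIF4A, brings an mRNA to the small ribosomal subunit. That subunit already carries eIF1, eIF1A, eIF5, the large complex eIF3 and the initiator tRNA held by eIF2, and it scans to a start codon. eIF5B then joins the large subunit, eEF1A delivers each next aminoacyl-tRNA, and eEF2 moves the ribosome along the mRNA. Blood stem cells are known for a low and tightly held rate of protein synthesis.

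Libraries held 21116079 to 23898130 counts in the mouse and 15289510 to 19798608 in the human experiment. Levels are given as CPM, the count relative to the scaled size of the library. The targeted gene checked the labels: Ddx21 was at 1410.0, 1431 and 1432 CPM in WT and 276, 283 and 282 in cKO, and DDX21 at 477, 465 and 468 in shNC and 68.6, 69.2 and 67.0 in shDDX21. Differences are log2 fold changes from edgeR's quasi-likelihood test, and a gene is called where its p, adjusted by Benjamini-Hochberg over all genes tested, is under 0.05. Replicates were far tighter in the human experiment, with a biological coefficient of variation of 2.23% against 10.5% in the mouse. Nothing in the labels says that replicates came from separate embryos or cultures, so p-values measure the spread between these libraries, which may be technical. WT replicate 3 and cKO replicate 2 stood apart from their groups in the same way, as described at the end. Of cell markers, 7 blood progenitor genes summed to 1380.4 to 1420.1 CPM in WT, 1509 to 1523 in cKO, 1881 to 1904 in shNC and 1850.3 to 1881 in shDDX21. In the mouse, 9 hepatocyte genes summed to 1.44 to 2.04 CPM in WT and 29.4 to 33.6 CPM in cKO, 6 endothelial genes to 75.5 to 92.5 and 115 to 133, 7 macrophage genes to 7.98 to 8.91 and 7.62 to 9.48, and 8 erythroid genes to 327 to 487 and 354 to 579. Of 5 pluripotency genes Sox2 was at 0 in every mouse library, and the sum was 3.68 to 4.41 CPM in WT and 3.99 to 4.92 in cKO. In the human cells, 6 endothelial genes summed to 1742 to 1789 CPM in shNC and 1541 to 1561 in shDDX21, 3 macrophage genes to 91.01 to 96.3 and 44.7 to 50.5, 4 erythroid genes to 401 to 419 and 476 to 483, and the pluripotency genes LIN28A and DPPA4 to 229.7 to 238.7 and 278 to 289. No hepatocyte gene of the list has a symbol in the human table. The part of such cells in the results below was not tested, and in these bulk libraries fewer cells of a type and less RNA per cell cannot be told apart.

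Elongation factor transcripts dominated the set. In controls, Eef1a1 had 4788 CPM per kb of exon and Eef2 1399 in the mouse, ahead of Eif5a at 734. In human controls EEF2 had 946 CPM per kb and EEF1A1 902, ahead of EIF4G2 at 156 and EIF4B at 141. These lengths are the union of all annotated exons, so genes with long minor exons are understated. All members together took 4.01% to 4.07% of counts in WT and 3.99% to 4.04% in cKO. They took 2.41% ± 0.017 in shNC and 2.63% ± 0.014 in shDDX21 (SD, n = 3 each), and the 2 human groups did not overlap. EEF1A1 and EEF2 alone went from 1.28% to 1.31% of counts in shNC to 1.63% to 1.64% in shDDX21, and the other 62 human members together went the other way, from 1.117% to 1.121% in shNC to 0.991% to 1.003% in shDDX21.

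In the human cells the set split, with members lowered to as little as 45.3% of control and, among those at 5 CPM or more, others raised by up to 1.43-fold. All 64 human members could be tested: 21 were higher in shDDX21 (32.8% of members, against a percent called of 25.3 over all 20188 genes tested) and 27 were lower (42.2%, against 27.4). The median log2 fold change of members was -0.09, beside 0.01 over all genes. In the mouse 59 of 61 members passed the filter on low counts: 4 were higher in cKO (6.78%, against 20.7 over all 14918 genes tested) and 17 were lower (28.8%, against 15.8), with a median of -0.11 beside 0.00 over all genes. Eef1akmt3 and Eif4ebp3 did not pass, at under 1 CPM in every library. Mouse differences were small: of the called members only Eif4e3 changed by more than 0.41 on the log2 scale, and the 38 tested members without a call lay between -0.52 and 0.11. The number of mouse calls fell from 21 to 11 without WT replicate 1 (1 higher), 11 without WT replicate 2 (1 higher) and 9 without cKO replicate 3 (1 higher), and the higher calls were 2 without WT replicate 3 or cKO replicate 1. With total-count scaling the mouse calls were 4 higher and 7 lower, and with WT replicate 3 and cKO replicate 2 both left out (chosen after seeing the data) they were 5 higher and 26 lower.

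**Figure D1:**
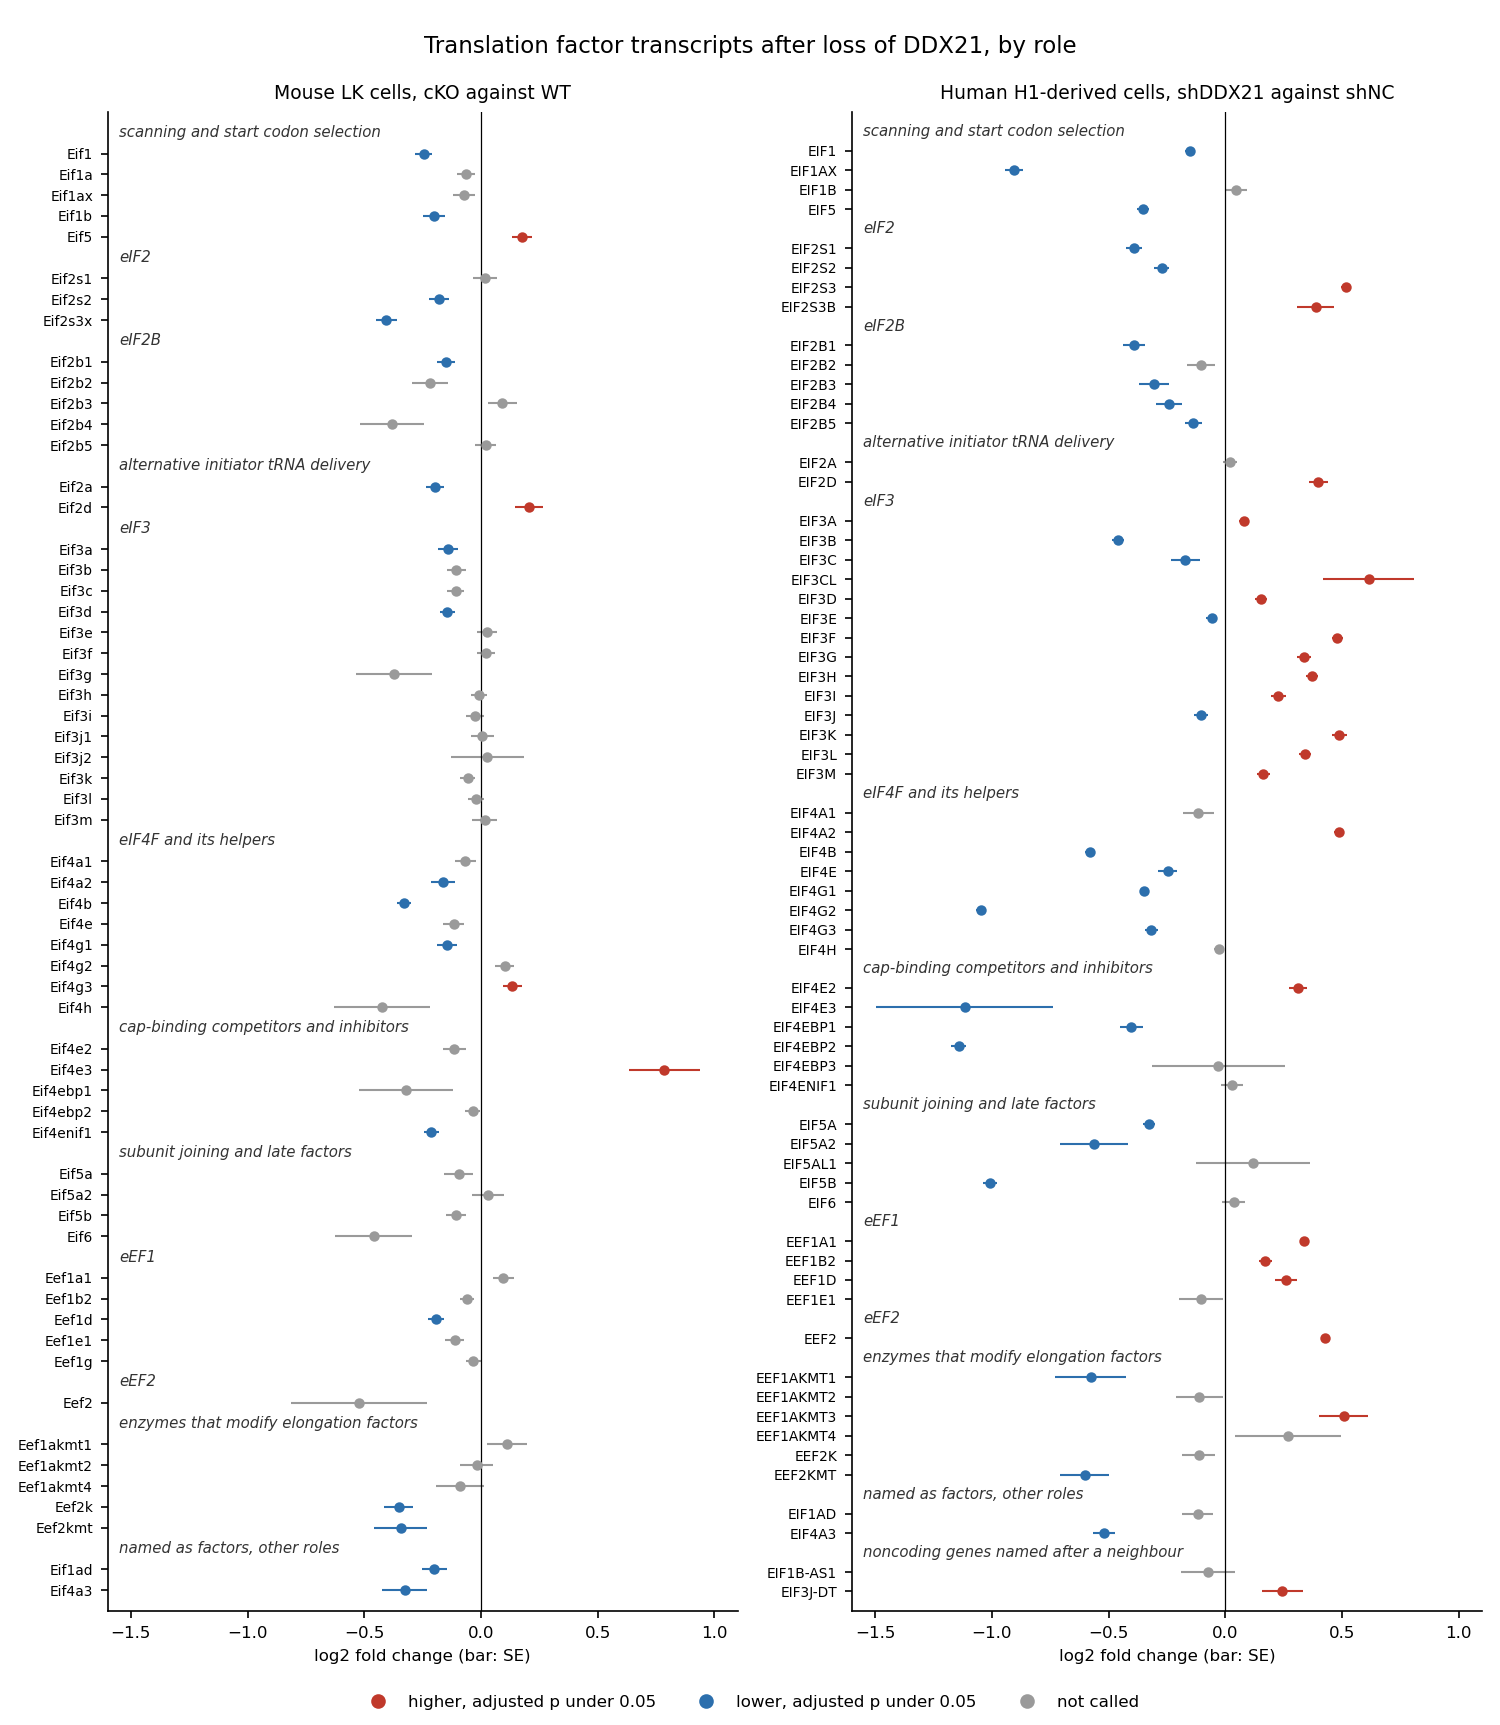
Each point is 1 translation factor gene, with its log2 fold change (x axis) in the mouse (left) and human (right) experiment, grouped by role; bars are standard errors, red and blue points passed an adjusted p under 0.05. Of the plotted mouse members 17 are blue and 4 red, while the human panel has 27 blue and 21 red points and reaches -1.14. 1 human member that was not called is left out of the plot.

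Among the factors of scanning and start codon choice, EIF1AX fell most in the human cells. EIF1AX (ENSG00000173674), the X-linked gene of eIF1A, which holds the scanning ribosome open and helps place the initiator tRNA, was at 114, 111 and 111 CPM in shNC and 59.7, 63.01 and 56.8 CPM in shDDX21. The groups were far apart, with log2 fold change -0.91 (adjusted p = 1.88e-32, SE 0.039) that left 53.4% of the control level. This share is that of EIF1AX alone and not of all eIF1A transcripts. In the mouse, Eif1ax was at 189, 186 and 191 CPM in WT and 170.1, 191 and 177 CPM in cKO, with overlapping groups and log2 fold change -0.07 (adjusted p = 0.262, SE 0.048). Mouse Eif1a stood at -0.065, also with overlapping groups and no call. EIF1, which guards against starting at wrong codons, was lower in both experiments. It was at 421, 425 and 414 CPM in shNC and 381, 379 and 374 CPM in shDDX21, log2 fold change -0.15 (adjusted p = 3.35e-08, SE 0.023). Mouse Eif1 (ENSMUSG00000035530, chromosome 11, 100319885 to 100322096 on GRCm38) was at 338, 328 and 318 CPM in WT and 271, 282 and 277 CPM in cKO, log2 fold change -0.25 (adjusted p = 0.00219, SE 0.038), and all cKO libraries were below all WT libraries.

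EIF5, which drives GTP hydrolysis on eIF2 when the start codon is found, moved in opposite directions. The human gene was at 254, 253 and 259 CPM in shNC and 199, 195 and 205 CPM in shDDX21, log2 fold change -0.35 (adjusted p = 2.42e-19, SE 0.027). The mouse gene was at 628, 620.1 and 654 CPM in WT and 691, 752 and 705 CPM in cKO, with every cKO library above every WT library and log2 fold change 0.18 (adjusted p = 0.0183, SE 0.044). That mouse call was lost in 3 of 6 fits that left out 1 library (WT replicate 1, WT replicate 2 or cKO replicate 3). Over all its alternatives, adjusted p reached 0.106. The close relative EIF1B was lower in the mouse (-0.20) and stood at 0.05 without a call in the human cells. The mouse Eif1b call was lost without cKO replicate 1 or cKO replicate 3, with DESeq2, and with upper-quartile or total-count scaling, with adjusted p up to 0.119. In this role group 3 of 5 human members fell and 0 rose, and in the mouse 2 of 5 fell and 1 rose, where 27.4% of all human and 15.8% of all mouse genes tested were lower.

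The 3 subunits of eIF2, which carries the initiator tRNA, did not move together. In the human cells EIF2S3, the X-linked gene of the tRNA-binding gamma subunit, had the largest increase among the well-expressed members. It was at 477, 487 and 469 CPM in shNC and 686, 687 and 676 CPM in shDDX21, log2 fold change 0.52 (adjusted p = 3.16e-33, SE 0.021). EIF2S1, whose product is the alpha subunit that stress kinases phosphorylate, was at 126, 128 and 131 CPM in shNC and 96.1, 100.3 and 96.98 CPM in shDDX21, log2 fold change -0.39 (adjusted p = 8.87e-17, SE 0.034). EIF2S2, the beta subunit, fell by 0.27. The intronless copy EIF2S3B rose from 15.8 to 20.6 CPM, and since it is nearly identical to EIF2S3, reads could be split between the genes by the authors' counting.

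In the mouse the X-linked gene of the gamma subunit was lower, and its difference from the human gene was not tested because the symbols differ. Eif2s3x (ENSMUSG00000035150, chromosome X, 94188707 to 94212862 on GRCm38, minus strand) was at 420.4, 421 and 429 CPM in WT and 303, 336 and 319 CPM in cKO, well separated, with log2 fold change -0.41 (adjusted p = 0.000448, SE 0.044). It was called in all 13 other fits (another scaling, filter or tool, a replicate block, or a library left out). Eif2s3x is known to escape X inactivation, so its level can follow the sex of the embryos, and its Y-linked copy Eif2s3y was at 37.6, 40.9 and 41.9 CPM in WT and 76.0, 85.1 and 77.3 CPM in cKO. The Y-linked Ddx3y, Kdm5d and Uty were higher by 0.92, 1.07 and 1.12 on the log2 scale, and the X-linked escape genes Kdm5c and Kdm6a were lower (-0.40 and -0.49). Embryo sex and genotype therefore cannot be told apart for Eif2s3x. The sum of both mouse gamma genes was 464 ± 6.61 CPM in WT and fell short of that in cKO at 399 ± 21.3 (mean ± SD of 3 libraries), or 86.1% of WT, with the Y-linked copy supplying 8.66% of it in WT and 19.9% in cKO. Mouse Eif2s2 was lower (-0.18), while Eif2s1 stood at 0.02 with overlapping groups. The Eif2s2 call was lost without WT replicate 2, cKO replicate 1 or cKO replicate 3, with adjusted p up to 0.157 over its alternatives.

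The exchange factor eIF2B, which recharges eIF2 with GTP, was lower in the human cells in 4 of 5 subunits, beside 27.4% of all genes, and higher in 0. EIF2B1, the alpha subunit, was at 60.8, 65.5 and 62.2 CPM in shNC and 47.2, 48.4 and 47.9 CPM in shDDX21, log2 fold change -0.39 (adjusted p = 1.99e-11, SE 0.046). The others were EIF2B3 (-0.31), EIF2B4 (-0.24) and the catalytic EIF2B5 (-0.14), while EIF2B2 stood at -0.10 with an adjusted p of 0.142 from edgeR. The EIF2B5 call was lost with upper-quartile scaling. In the mouse only Eif2b1 was called, at 165, 170.4 and 163 CPM in WT and 153, 145 and 152 CPM in cKO, log2 fold change -0.15 (adjusted p = 0.0198, SE 0.038). This call was lost without WT replicate 1, WT replicate 2, cKO replicate 2 or cKO replicate 3. It held in 5 of the 13 other fits, with adjusted p up to 0.159.

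Of the factors that can deliver the initiator tRNA without eIF2, EIF2D, which also recycles ribosomal subunits, rose in both experiments. It was at 61.8, 64.6 and 58.7 CPM in shNC and 82.3, 79.7 and 81.5 CPM in shDDX21, log2 fold change 0.40 (adjusted p = 1.79e-13, SE 0.041). Mouse Eif2d was at 73.7, 73.1 and 71.3 CPM in WT and 88.97, 77.2 and 85.6 CPM in cKO, all cKO above all WT, with log2 fold change 0.21 (adjusted p = 0.0324, SE 0.060). The mouse call held in 1 of 6 fits without a library, the one without cKO replicate 2, and adjusted p reached 0.117 over its alternatives. Eif2a was lower in the mouse (-0.20, adjusted p = 0.00743 by edgeR), and EIF2A stood at 0.02 in the human cells. The Eif2a call was lost with upper-quartile and with total-count scaling, at adjusted p of 0.06 and 0.0902 by edgeR.

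Every one of the 14 human eIF3 genes was called, 10 higher and 4 lower, beside 25.3% and 27.4% of all genes, and apart from the copy EIF3CL the largest rises were in subunits of its scaffold octamer. EIF3K, a small peripheral member of that octamer, was at 111, 117 and 112 CPM in shNC and 156, 161 and 159 CPM in shDDX21, log2 fold change 0.49 (adjusted p = 1.08e-22, SE 0.032). EIF3F, one of its MPN-domain subunits, was at 248, 247 and 245 CPM in shNC and 343, 339 and 349 CPM in shDDX21, log2 fold change 0.48 (adjusted p = 5.53e-28, SE 0.025). In both genes the replicates were tight and the groups did not overlap.

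EIF3H (0.37), EIF3L (0.34) and EIF3M (0.16) of the octamer rose as well, and its largest subunit EIF3A rose slightly (0.08). EIF3C and EIF3E fell by 0.17 and 0.06, both of which are uncertain. EIF3C has the near-identical copy EIF3CL, which rose from 2.34 to 3.55 CPM, so reads may be split between the copies. The EIF3E call turned to a small increase with upper-quartile scaling and was lost without shNC replicate 2, shDDX21 replicate 1 or shDDX21 replicate 2. The EIF3C call was lost without shNC replicate 2 or shDDX21 replicate 2, and that of EIF3CL without shDDX21 replicate 1. Over all 13 other fits, the EIF3C call held in 9 and the EIF3E call in 7.

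Outside the octamer, EIF3B, the scaffold of the subunits that sit near the mRNA channel, was at 345, 321 and 334 CPM in shNC and 248, 242 and 237 CPM in shDDX21, log2 fold change -0.46 (adjusted p = 8.96e-26, SE 0.026). Its partners EIF3G (0.34) and EIF3I (0.23) rose, so genes of the same module moved in opposite directions. EIF3D, which can itself bind the cap, rose (0.15), and the loosely bound EIF3J fell (-0.10), a call lost with upper-quartile scaling. For EIF3L, 51.8% of exon bases overlap other genes in the deposited coordinates, 41.1% on the same strand, so how shared reads were counted bears on its value.

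In the mouse 0 of 14 eIF3 genes were higher, beside 20.7% of all genes tested, and 2 were lower, which is close to the 15.8% of all genes. They were Eif3a at 1685, 1749 and 1762 CPM in WT and 1510.0, 1640.0 and 1561 CPM in cKO, log2 fold change -0.14 (adjusted p = 0.0358, SE 0.042), and Eif3d at 328, 332 and 337 CPM in WT and 301, 295 and 306 CPM in cKO, log2 fold change -0.14 (adjusted p = 0.0122, SE 0.033). The Eif3a call was lost in 5 of 6 fits without a library (all but the fit without cKO replicate 2), with adjusted p up to 0.338 over its alternatives. The Eif3d call was lost without cKO replicate 1 or cKO replicate 2, and 43.3% of its exon bases overlap a gene on the other strand. That call held in 8 of the 13 other fits, with adjusted p up to 0.191. Eif3f, Eif3h, Eif3k, Eif3l and Eif3m, orthologs of octamer subunits that rose in the human cells, lay between -0.06 and 0.02 with no call. Of the other human subunits that rose, EIF3A and EIF3D have as orthologs the 2 genes that were lower in the mouse. Eif3i stood at -0.03 and Eif3g at -0.37, both without a call.

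The scaffold genes of eIF4F and the helicase cofactor EIF4B fell in the human cells, while a helicase gene rose. EIF4G2 (ENSG00000110321), also called DAP5, an eIF4G relative that lacks the eIF4E-binding part and supports translation that does not depend on eIF4E, was at 1301, 1337 and 1331 CPM in shNC and 644, 631 and 645 CPM in shDDX21. Its log2 fold change stood at -1.05 (adjusted p = 8.08e-54, SE 0.020), the smallest p of all members, and it left 48.4% of the control level. In the mouse the gene was at 2581, 2583 and 2724 CPM in WT and 2778, 2902 and 2776 CPM in cKO, with all cKO libraries above all WT and log2 fold change 0.10 (adjusted p = 0.0868, SE 0.040), which was not called.

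EIF4G1, the main scaffold of eIF4F, was at 719.7, 709 and 721 CPM in shNC and 573, 565 and 554 CPM in shDDX21, log2 fold change -0.35 (adjusted p = 3.95e-24, SE 0.021). Its relative EIF4G3 fell by 0.32. In the mouse Eif4g1 was at 1618, 1619.9 and 1528 CPM in WT and 1488, 1395 and 1427 CPM in cKO, log2 fold change -0.14 (adjusted p = 0.0312, SE 0.042), while Eif4g3 rose, at 179.6, 179 and 177 CPM in WT and 204, 188 and 196 CPM in cKO, log2 fold change 0.13 (adjusted p = 0.038, SE 0.040). Both mouse calls were fragile: that of Eif4g1 was lost without WT replicate 1, WT replicate 2, cKO replicate 2 or cKO replicate 3, and that of Eif4g3 was lost in 5 of 6 such fits (all but the fit without cKO replicate 2). Over all 13 other fits, the Eif4g1 call held in 5 and the Eif4g3 call in 4.

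EIF4B, an RNA-binding protein that stimulates the eIF4A helicase, was lower in both experiments with little spread. It was at 869, 849.8 and 838 CPM in shNC and 575, 561 and 572 CPM in shDDX21, log2 fold change -0.58 (adjusted p = 5.44e-37, SE 0.021). Mouse Eif4b (ENSMUSG00000058655, chromosome 15, 102073773 to 102097173 on GRCm38) was at 1397, 1394 and 1375 CPM in WT and 1113, 1103 and 1097 CPM in cKO, log2 fold change -0.33 (adjusted p = 0.000206, SE 0.031), and was called in all 13 other fits. The related helper EIF4H stood at -0.03 in the human cells and was not called.

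EIF4A2, one of 2 close helicase paralogs, rose in the human cells at 409, 425 and 409 CPM in shNC and 579, 582 and 579 CPM in shDDX21, log2 fold change 0.49 (adjusted p = 5.56e-31, SE 0.022). Its mouse ortholog was lower, at 484, 489.7 and 512 CPM in WT and 416, 469.7 and 442 CPM in cKO, log2 fold change -0.16 (adjusted p = 0.0423, SE 0.051) that was lost in 5 of 6 fits without a library (all but the fit without cKO replicate 2). Over all 13 other fits this mouse call held in 4. The other paralog was not called in either experiment (-0.12 and -0.07). Human EIF4A1 stood at only 27.1 CPM in shNC, and 47.4% of its exon bases are shared with another annotated gene on the same strand, so its level depends on how shared reads were counted. EIF4E, the cap-binding subunit, fell in the human cells (-0.25, adjusted p = 2.45e-07 by edgeR) and stood at -0.12 without a call in the mouse.

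Among the proteins that compete for the cap or for eIF4E, the human change was led by EIF4EBP2. This gene (ENSG00000148730) encodes 4E-BP2, an inhibitor that binds eIF4E until mTOR phosphorylates it. It was at 218, 223 and 211 CPM in shNC and 98.6, 97.5 and 99.3 CPM in shDDX21, log2 fold change -1.14 (adjusted p = 2.28e-44, SE 0.031) that left 45.3% of the control level. EIF4EBP1, the paralog with the same role, was at 55.9, 54.3 and 54.5 CPM in shNC and 43.6, 41.6 and 39.3 CPM in shDDX21, log2 fold change -0.40 (adjusted p = 7.51e-11, SE 0.049). Both 4E-BP genes above 5 CPM fell, as did EIF4E and EIF4G1. EIF4EBP3 was at 1.07 to 1.84 CPM and was not called.

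The mouse 4E-BP genes were not called. Eif4ebp2 was at 581, 587 and 595 CPM in WT and 569.6, 581 and 569 CPM in cKO, log2 fold change -0.04 (adjusted p = 0.392, SE 0.031), and its groups overlapped slightly. Eif4ebp1 ranged from 18.6 to 35.3 CPM, with the lowest level in cKO replicate 2 and a low level in WT replicate 3. EIF4E2, a cap-binding protein that represses translation, rose in the human cells at 79.1, 77.4 and 82.4 CPM in shNC and 95.3, 103 and 98.3 CPM in shDDX21, log2 fold change 0.31 (adjusted p = 5.16e-11, SE 0.038), and stood at -0.11 without a call in the mouse.

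Eif4e3, an atypical cap-binding relative, had the largest mouse change of the set at a low level. It was at 4.57, 4.33 and 5.89 CPM in WT and 8.67, 9.40 and 7.44 CPM in cKO, log2 fold change 0.79 (adjusted p = 0.00635, SE 0.15), and was called in all 13 other fits. In the human cells EIF4E3 was near 1 CPM, at 1.32, 1.31 and 0.788 CPM in shNC and 0.411, 0.534 and 0.626 CPM in shDDX21, log2 fold change -1.12 (adjusted p = 0.0102, SE 0.38) that was lost without shNC replicate 1 or shDDX21 replicate 1. Eif4enif1, whose product 4E-T carries eIF4E to the nucleus and to RNA granules, was lower in the mouse at 199.9, 203 and 204 CPM in WT and 173, 175 and 176 CPM in cKO, log2 fold change -0.21 (adjusted p = 0.00206, SE 0.032), and called in all 13 other fits. In the human cells it stood at 0.03 with no call.

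EIF5B, the GTPase that joins the ribosomal subunits, was lowered to 49.7% of control in the human cells. It was at 182, 191 and 186 CPM in shNC and 94.8, 91.6 and 91.7 CPM in shDDX21, log2 fold change -1.01 (adjusted p = 3.04e-40, SE 0.032). Mouse Eif5b was at 458, 454 and 467 CPM in WT and 414, 451 and 414 CPM in cKO, log2 fold change -0.11 (adjusted p = 0.0919, SE 0.043), so all cKO libraries lay just below WT without a call. EIF5A, which carries hypusine and relieves stalled ribosomes, fell in the human cells (-0.33), as did its much rarer paralog EIF5A2 (-0.56, from 6.23 to 4.23 CPM). EIF6, which keeps the large subunit from joining too early and is needed to make it, stood at 0.04. EIF5AL1, an intronless relative of EIF5A, was at 1.46 to 2.45 CPM and was not called.

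**Figure D2:**
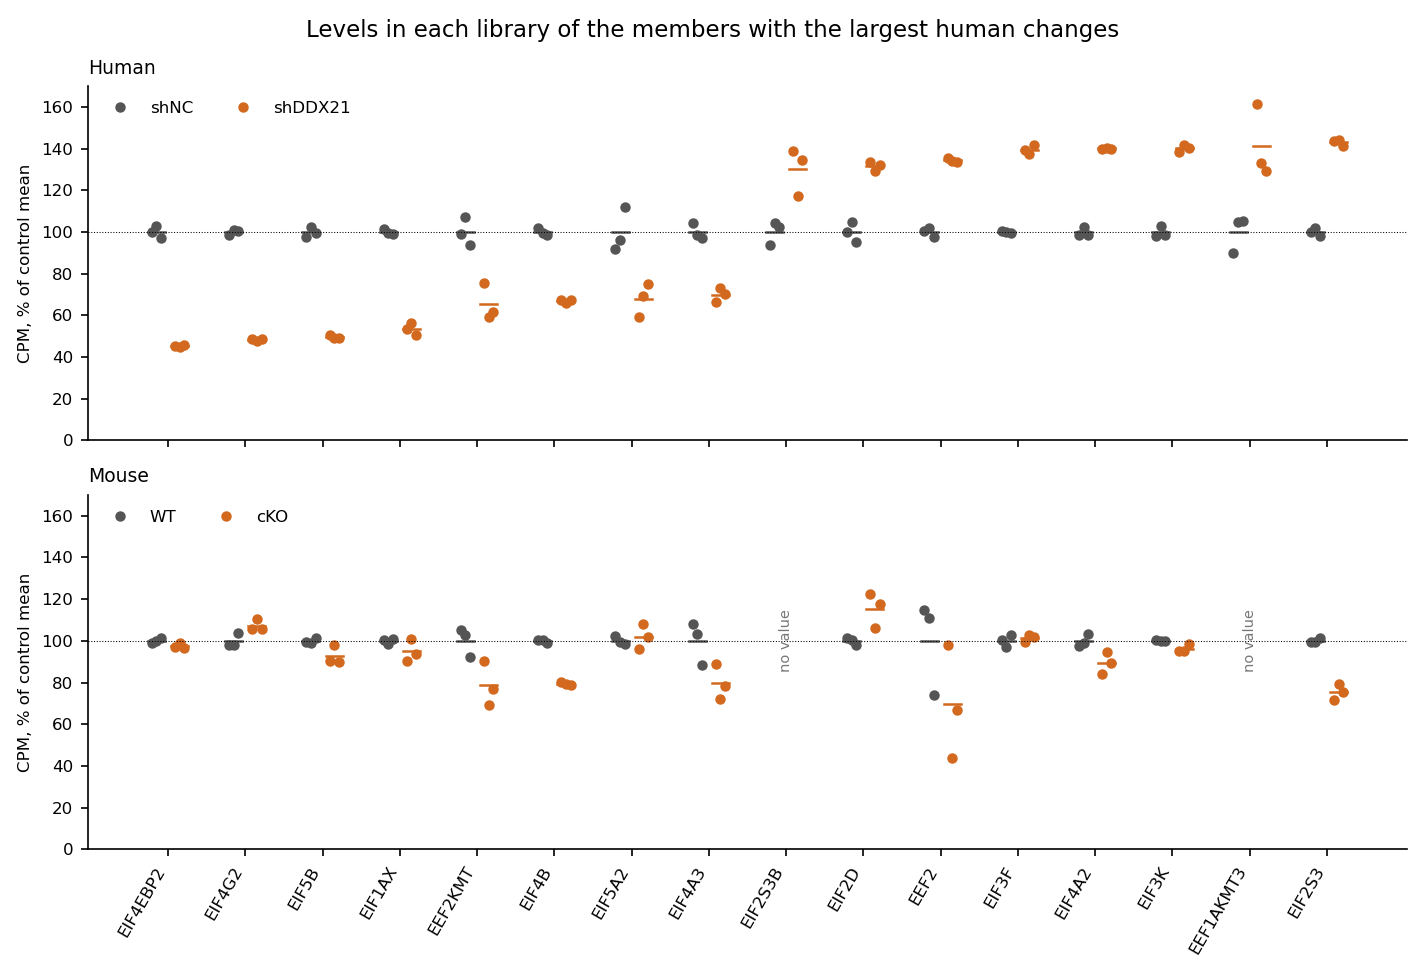
Level in each library as a percent of the control mean (y axis, CPM) for the 8 human members with the largest called decreases and the 8 with the largest called increases among those with a mean of at least 5 CPM, which leaves out EIF4E3 and EIF3CL, above for the human and below for the mouse experiment; points are libraries and lines are group means. EIF4EBP2, EIF4G2, EIF5B and EIF1AX lie far below the control level in shDDX21 and near the control level in cKO, whereas EIF4B is lower in both; the mouse gene drawn under EIF2S3 is Eif2s3x.

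Of the 5 human elongation factor genes measured, 4 rose and 0 fell, beside 25.3% higher and 27.4% lower over all human genes tested. EEF2, which moves the ribosome by a codon after each peptide bond, was at 3811, 3883 and 3714 CPM in shNC and 5154, 5103 and 5070.4 CPM in shDDX21, log2 fold change 0.43 (adjusted p = 1.06e-34, SE 0.017). EEF1A1, which delivers aminoacyl-tRNA, was at 8928, 9213 and 9081 CPM in shNC and 11471, 11392 and 11533 CPM in shDDX21, log2 fold change 0.34 (adjusted p = 1.9e-31, SE 0.015). Of the exchange factor subunits that reload eEF1A with GTP, EEF1B2 (0.17) and EEF1D (0.26) rose, and EEF1E1, a member of the multi-tRNA synthetase complex despite its name, stood at -0.10 without a call. The third exchange subunit, EEF1G, has no symbol in the human table and was not analysed there.

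In the mouse, Eef1d alone of the elongation factors was called. It was at 412, 422 and 418 CPM in WT and 374, 356 and 365 CPM in cKO, log2 fold change -0.19 (adjusted p = 0.0043, SE 0.034), and was called in all 13 other fits. Eef1a1 was at 11777, 11862 and 12169.7 CPM in WT and 12244, 13232 and 12797 CPM in cKO, slightly above WT in every cKO library without a call (0.10, adjusted p = 0.124 by edgeR). Eef2 varied more between replicates than between groups, at 5347, 5162 and 3439.6 CPM in WT and 4554, 2034 and 3116 CPM in cKO. Its log2 fold change stood at -0.52 (adjusted p = 0.196, SE 0.29), and the groups overlapped. Without cKO replicate 1 the value was -0.84 with an adjusted p of 0.0261 from edgeR, and without cKO replicate 2 it was -0.26 with 0.382. Without both WT replicate 3 and cKO replicate 2 the value was -0.45 with 0.0361. Each of these libraries held the lowest Eef2 level of its group, and the fit was chosen after seeing the data.

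Of the enzymes that act on the elongation factors, EEF2KMT, a lysine methyltransferase of eEF2, was lower in both experiments. It was at 12.7, 13.7 and 11.99 CPM in shNC and 9.65, 7.59 and 7.86 CPM in shDDX21, log2 fold change -0.60 (adjusted p = 9.54e-07, SE 0.10). In the mouse it was at 26.1, 25.6 and 22.9 CPM in WT and 22.4, 17.1 and 19.1 CPM in cKO, log2 fold change -0.34 (adjusted p = 0.0467, SE 0.11), a call lost without WT replicate 1, WT replicate 2, cKO replicate 2 or cKO replicate 3. Over all 13 other fits that mouse call held in 7. Overlap with genes on the other strand covers 31.4% of the exon bases of human EEF2KMT and 23.0% of those of the mouse gene. Eef2k, the kinase that switches eEF2 off, was lower in the mouse at 160.3, 152 and 148 CPM in WT and 129, 111 and 121 CPM in cKO, log2 fold change -0.35 (adjusted p = 0.00432, SE 0.062) called in all 13 other fits, and stood at -0.11 without a call in the human cells. The eEF1A lysine methyltransferases went different ways in the human cells: EEF1AKMT3 rose from 8.87 to 12.5 CPM while EEF1AKMT1 fell from 5.59 to 3.75 CPM. EEF1AKMT2 (-0.11) and EEF1AKMT4 (0.27) were not called.

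EIF4A3 carries a factor's name but is a core part of the exon junction complex, which marks spliced mRNA. It was lower in both experiments, at 69.8, 66.1 and 64.8 CPM in shNC and 44.3, 48.9 and 47.04 CPM in shDDX21, log2 fold change -0.52 (adjusted p = 5.02e-16, SE 0.047). In the mouse it was at 267, 255 and 218 CPM in WT and 219, 178 and 193 CPM in cKO, log2 fold change -0.33 (adjusted p = 0.0343, SE 0.096), with WT replicate 3 just below cKO replicate 1. The mouse call was lost without WT replicate 1, WT replicate 2, cKO replicate 2 or cKO replicate 3. Eif1ad, named for its eIF1A-like domain, was lower in the mouse (-0.20) in a call lost without WT replicate 1, WT replicate 3, cKO replicate 1 or cKO replicate 3. The Eif1ad call held in 6 of the 13 other fits. EIF1AD stood at -0.12 in the human cells. The noncoding EIF3J-DT was higher at 0.24, a call that held in 2 of 6 fits without a library (those without shNC replicate 2 or shDDX21 replicate 3), and EIF1B-AS1 was not called.

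Ratios between paralogs need no scaling between libraries. They are given as log2 of the ratio of counts per kb of exon, as a description with no test, and 9 pairs could be measured. EIF4G2 over EIF4G1 was 0.90, 0.96 and 0.93 in shNC and 0.21, 0.20 and 0.27 in shDDX21, so the human ratio went from 1.90 to 1.17. In the mouse the same ratio was higher in every cKO library, at 0.20, 0.20 and 0.36 in WT and 0.42, 0.58 and 0.48 in cKO. Within the groups it was highest in WT replicate 3 and cKO replicate 2. The transcripts of Eif4g2 and Eif4g1 differ in GC content (43.2% and 54.2%), and the part of the GC pattern described below in this ratio was not tested. EIF4EBP1 over EIF4EBP2 was 1.13, 1.05 and 1.14 in shNC and 1.91, 1.86 and 1.75 in shDDX21, a move from 2.15 to 3.58, while the mouse groups overlapped.

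EIF4E2, the repressive cap-binding protein, over EIF4E was -1.24, -1.23 and -1.14 in shNC and -0.64, -0.61 and -0.69 in shDDX21, with no overlap, and the mouse groups overlapped. EIF4G3 over EIF4G1 was -3.77, -3.78 and -3.71 in WT and -3.47, -3.49 and -3.46 in cKO in the mouse, with no overlap, and overlapped in the human cells. EIF4E3 over EIF4E was higher in every cKO library, at -4.79, -4.88 and -4.48 in WT and -3.69, -3.73 and -3.99 in cKO. In the human cells it was lower in every shDDX21 library, at -7.06, -7.04 and -7.76 in shNC and -8.41, -8.12 and -7.90 in shDDX21, with EIF4E3 near 1 CPM. EIF5A2 over EIF5A overlapped between groups in both experiments. For 1 such ratio the smallest two-sided p of an exact permutation test, at 3 libraries a group, is 0.1.

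**Figure D3:**
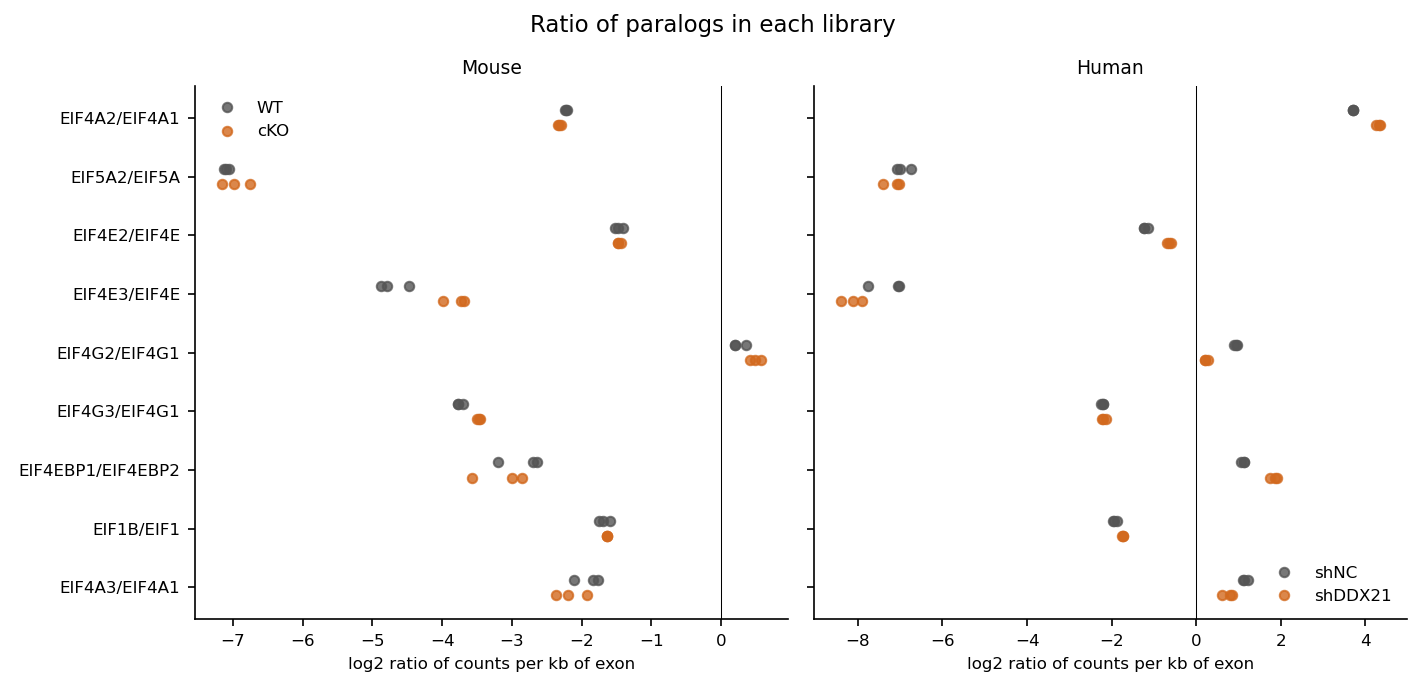
Log2 ratio of counts per kb of exon (x axis, scaled separately in each panel) for 9 pairs of related translation factor genes in every mouse (left) and human (right) library, control libraries in grey and DDX21-deficient ones in orange. EIF4G2/EIF4G1 lies between 0.90 and 0.96 in shNC and between 0.21 and 0.27 in shDDX21, and moves to the other side in the mouse.

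Several factors are known as products of terminal oligopyrimidine (TOP) mRNAs, which start with a C and a pyrimidine run and are translated under control of mTOR and LARP1. Of 8 such human members, 6 were higher (EEF2, EEF1A1, EEF1B2, EEF1D, EIF3F and EIF3H) and 2 lower (EIF4B and, as the uncertain call above, EIF3E), with a median log2 fold change of 0.30 beside -0.11 over the other 56 members. Over all human genes tested 25.3% were higher and 27.4% lower. Of 9 mouse members 0 were higher and 2 lower (Eif4b and Eef1d), with a median of -0.03 beside -0.11 over the other 50. Over all mouse genes tested 20.7% were higher and 15.8% lower, so the lower count is near that of all genes. The 2 sets were chosen by name and the medians are descriptions.

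The start of the mouse genes was read from RefSeq (GRCm38.p6), where 46 of 61 members have a start. A C followed by at least 4 bases that are C or T, on the transcribed strand from the annotated start, was found in 2 of the 46 (4.35%), beside 3.01% of all 27025 genes in the table. Of 5 members known as TOP mRNAs that have a start there, 1 matched (Eif3f), and Eef1a1, Eef1b2, Eef2 and Eif4b did not. The shares above therefore do not measure how many members are TOP mRNAs. Shown are the 2 matches and the starts of Eif4b and Eef2, which are known as TOP mRNAs but have no match at the annotated start, each with 10 bases before and 20 bases from that start. Capitals mark the C and the whole pyrimidine run after it.
Eif3f, chr7:108934405-108934434, plus strand: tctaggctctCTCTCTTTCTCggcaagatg
Eif2s3x, chrX:94212632-94212661, minus strand: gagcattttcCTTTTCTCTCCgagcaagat
Eif4b, chr15:102073763-102073792, plus strand: tcccgtcggacgccgcgccaccccctcgcg
Eef2, chr10:81176621-81176650, plus strand: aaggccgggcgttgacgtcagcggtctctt
Eif3f stood at 0.02 and Eif2s3x at -0.41 on the log2 scale in the mouse. For Eif2s3x, embryo sex and genotype cannot be told apart, as given above. These 2 genes therefore do not show whether this start sequence goes with a change. An annotated start can lie some bases from the start used in these cells, and no match says only that these letters are not at this position.

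Genes that act on the factors were counted from lists by pathway, as a description with no test. Over all genes tested, 25.3% were higher and 27.4% lower in the human cells, and 20.7% and 15.8% in the mouse. Of 14 genes that feed mTOR and MNK signals to eIF4F, 6 were higher and 5 lower in the human cells and 2 higher and 3 lower in the mouse. MTOR, the kinase that phosphorylates the 4E-BPs, fell by 0.69, from 178 ± 1.26 CPM in shNC to 110.5 ± 3.44 in shDDX21 (mean ± SD of 3 libraries, adjusted p 4.26e-31). RPS6KB1, the S6 kinase that acts on eIF4B, fell by 0.80, and MKNK2, a kinase of eIF4E, rose by 0.53. In the mouse the ortholog of LARP1 was lower (-0.25), and those of TSC2 (0.41) and PDCD4 (0.22), an inhibitor of eIF4A, were higher. The mouse ortholog of MKNK2 was lower at -0.71 (adjusted p 0.021 by edgeR), opposite to the human gene, and is named here after its value was seen. Its interaction difference, mouse minus human, was -1.24 (SE 0.21, adjusted p 0.000349).

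All 9 genes of the eIF2 kinase and phosphatase list were called in the human cells, 4 higher and 5 lower, beside 25.3% and 27.4% of all genes tested. EIF2AK2 (PKR, the kinase activated by double-stranded RNA) rose by 0.45, while PPP1R15B, which brings the phosphatase to eIF2, fell by 0.54 and DNAJC3, an inhibitor of these kinases, fell by 0.39. In the mouse 1 of 8 was higher (IMPACT's ortholog, 0.38) and 2 lower (those of EIF2AK1, -0.24, and PPP1R15B, -0.25), beside 20.7% and 15.8% of all genes tested. Of 5 poly(A)-binding and bridging genes, PABPC1 and PABPC4 fell in the human cells (-0.27 and -0.30) and PAIP1 rose (0.18). In the mouse the ortholog of PABPC4 was lower (-0.42), as was that of PAIP2B (-0.24), and that of PABPC1 was higher (0.14).

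Of 8 genes for termination, recycling and rescue, 4 were lower and 2 higher in the human cells. GSPT1, the release factor eRF3a, fell by 0.53 and ABCE1, which splits ribosomes after termination, fell by 0.56. In the mouse 1 was higher, the ortholog of GSPT2, from 3.85 to 9.08 CPM. Of 9 diphthamide and hypusine enzymes 2 were higher and 2 lower in the human cells, with DOHH and DHPS, which build hypusine on eIF5A, at -0.37 each and DPH5, which acts on eEF2, at 0.41. In the mouse the ortholog of DPH6 was higher (0.27) and that of DPH3 lower (-0.31). Of 11 mitochondrial translation factors 1 was higher and 4 lower in the human cells, and of 10 measured in the mouse 1 was higher and 3 lower. The shares over all genes tested were 25.3% higher and 27.4% lower in the human cells, and 20.7% and 15.8% in the mouse. TUFM, the mitochondrial counterpart of eEF1A, was higher in the human cells (0.23) and lower in the mouse (-0.18).

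Whether the changes differed between the experiments was tested as an interaction over all 12 libraries for 54 members matched by symbol and tested in both. The difference was called for 35: the mouse value was above the human one for 17 (31.5% of members, against a percent called of 36 over 10011 matched genes) and below it for 18 (33.3%, against 20.2). The smallest p-values belonged to EIF4EBP2, EIF4G2, EIF5B, EIF3K and EIF1AX. For EIF4EBP2 the difference, mouse minus human, was 1.11 (SE 0.039, adjusted p 1.14e-09) and for EIF4G2 it was 1.15 (SE 0.042, adjusted p 1.46e-09), both by edgeR. Species, cell source, and the way and time of the loss differ together and cannot be told apart.

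Of these 54 members 20 were called in the mouse and 42 in the human cells, and 15 in both, which is 75.0% of the mouse and 35.7% of the human calls. These shares are close to the call rates of the 54 members themselves, 77.8% in the human cells and 37.0% in the mouse. EIF4B, EIF4G1, EIF4A3, EIF1, EIF2S2, EIF2B1 and EEF2KMT were lower in both, and EIF2D was higher in both. EIF4A2, EEF1D, EIF3A and EIF3D were lower in the mouse and higher in the human cells, and EIF5, EIF4G3 and EIF4E3 were the reverse. The interaction was called for all 7 members with opposite calls. This adds little, because the same libraries had already given these members called changes of opposite sign. EIF4B, lower in both, still differed in size, by 0.25 (SE 0.033, adjusted p 5.59e-05 by edgeR).

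**Figure D4:**
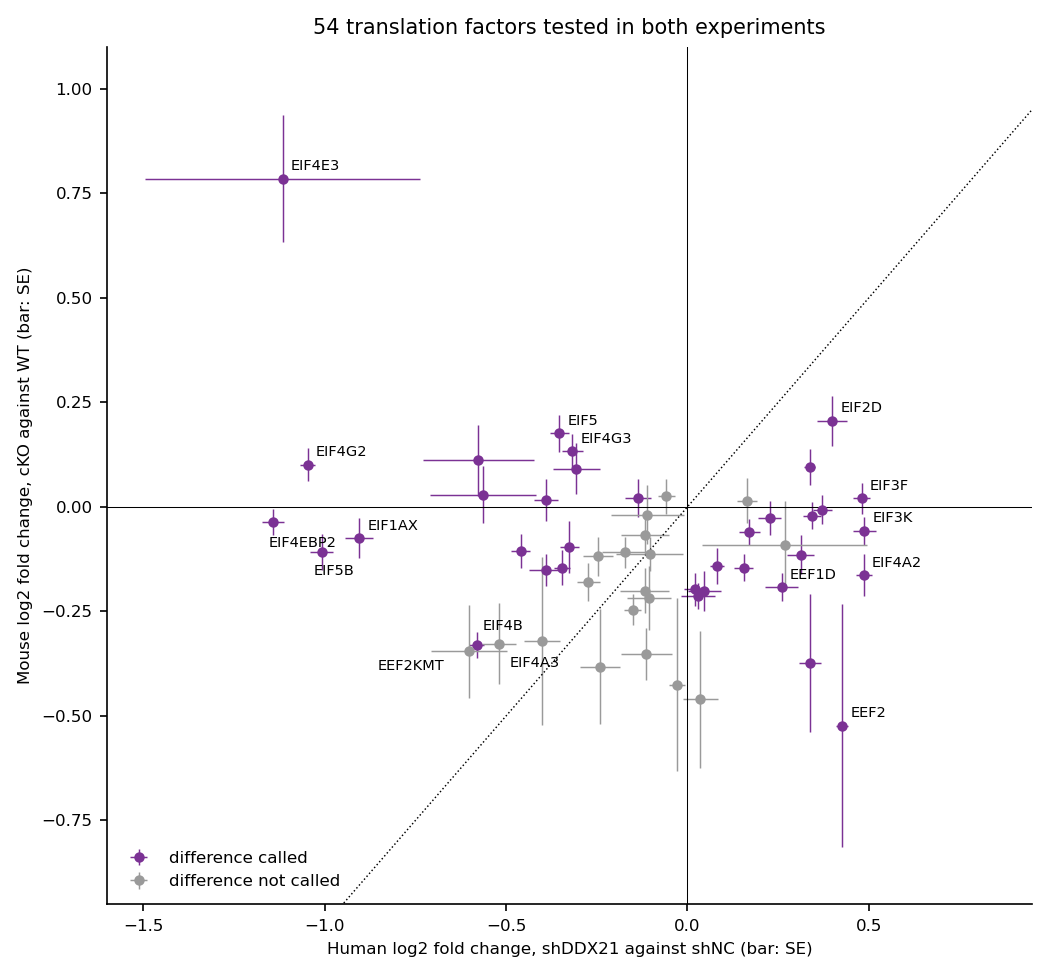
Log2 fold change in the human (x axis) and mouse (y axis) experiment of the 54 translation factors tested in both; bars are standard errors, the dotted line marks equal change, and purple points have a called difference between the experiments. EIF4EBP2, EIF4G2, EIF5B and EIF1AX lie far left near a mouse value of 0, and EIF4B, EIF4A3 and EEF2KMT lie below 0 on both axes.

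A pattern within the mouse groups touches several members. In WT replicate 3 and in cKO replicate 2, Eef2, Eif4h, Eif6, Eif3g and Eif4ebp1 were all more than 0.2 below their group mean on the log2 scale. Eif4h, the helper of eIF4A, was at 686, 637 and 435 CPM in WT and 549, 354 and 406 CPM in cKO, and Eif6 was at 126, 117 and 87.6 CPM in WT and 94.5, 66.3 and 79.6 CPM in cKO. Eif3g was at 235, 222 and 172 CPM in WT and 194, 129 and 163 CPM in cKO. None of these 5 was called with all libraries, and the mean was lower in cKO for all 5. Without WT replicate 3 and cKO replicate 2 all 5 were called lower, with log2 fold changes of -0.45 for Eef2, -0.46 for Eif4h, -0.47 for Eif6, -0.35 for Eif3g and -0.28 for Eif4ebp1 and adjusted p from 0.00263 to 0.0361 by edgeR. This fit was chosen after seeing the data. The 5 genes were picked by their deviation in the same 2 libraries, so leaving those out narrows their spread by construction. Their calls in this fit are therefore not separate evidence of a change.

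The transcripts of these 5 genes had a median GC content of 55.8%, beside 49.8% over the other 54 members. Eif4ebp1 is the exception among them, with 48.2%. Over the 59 members the deviation from the group mean went with GC content at Pearson r of -0.53 in WT replicate 3 and -0.59 in cKO replicate 2, and at 0.52, 0.36 and 0.64 in WT replicate 1, WT replicate 2 and cKO replicate 1, while cKO replicate 3 was at 0.01. Over 12160 genes the values were -0.52, -0.60, 0.43, 0.29, 0.58 and 0.03 in the same order. These are descriptions across genes of 1 library each, and genes are not independent replicates. Deviations within a group cancel, so negative values in 1 library come with positive ones elsewhere in its group. With an offset for GC content in each library, chosen after seeing the data, 4 mouse members were higher and 27 lower, and of these 5 genes Eif6 (-0.25) and Eif3g (-0.27) were called. Eef2 was then at -0.38 (adjusted p 0.0894 by edgeR), and Eif4h and Eif4ebp1 were not called either.

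**Figure D5:**
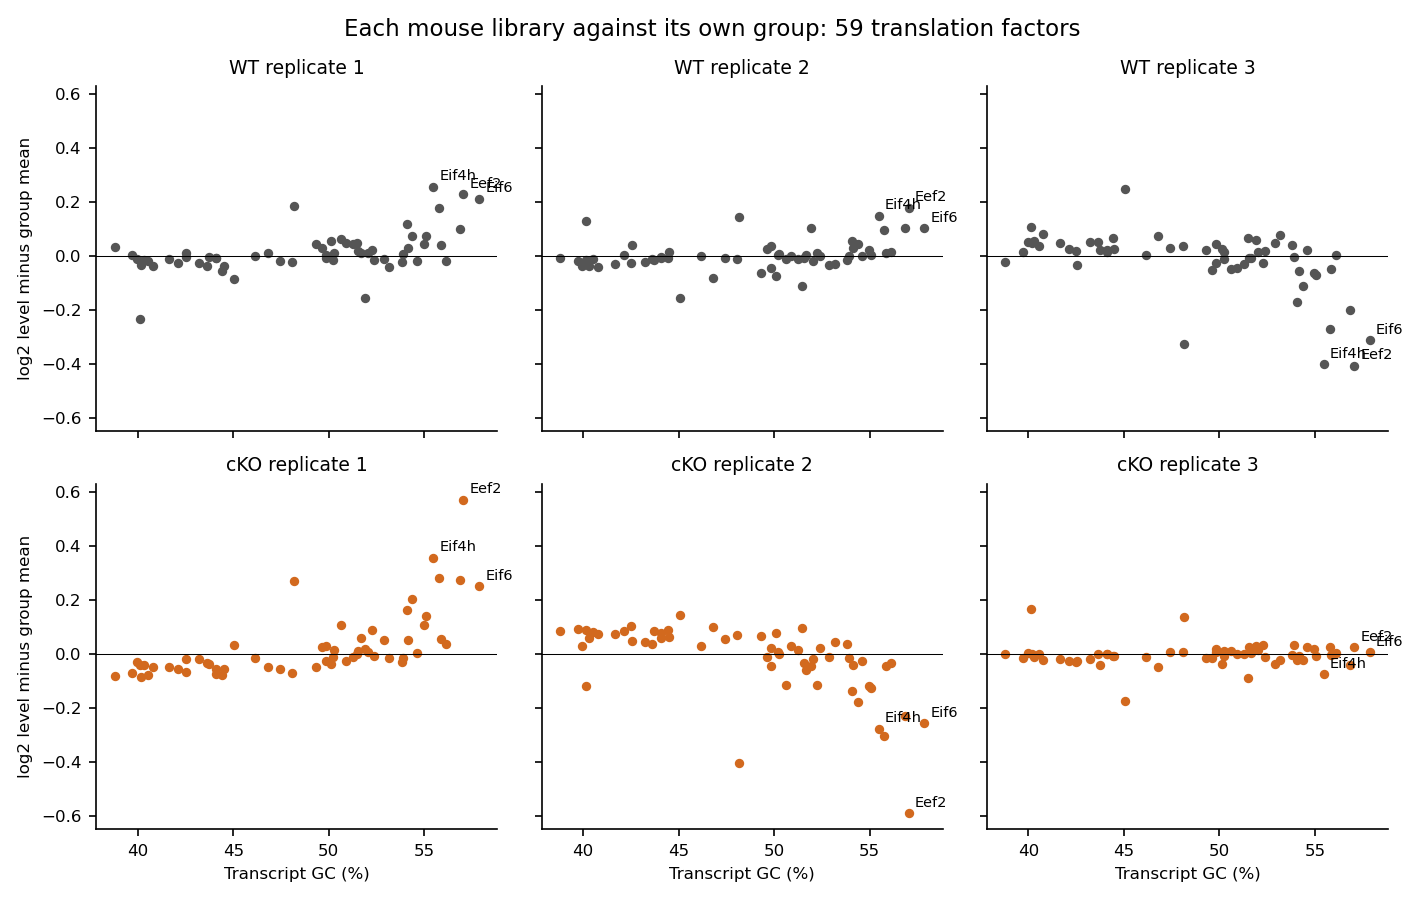
Each panel is 1 mouse library and each point 1 of 59 translation factors: the GC content of its transcript (x axis, percent) against its log2 level minus the mean of its own group (y axis). Eef2, Eif4h and Eif6 lie below 0 in WT replicate 3 and cKO replicate 2 and above 0 in WT replicate 1 and cKO replicate 1. Deviations within a group cancel, so values below 0 come with values above 0 in the same group. Other members of like GC content vary. Eef1d at 56.1% lies near 0 in every panel, while Eif2b4 at 56.8% lies at -0.20 in WT replicate 3 and -0.23 in cKO replicate 2.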

How the data were processed

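Polyadenylated RNA was sequenced in 12 libraries, 3 in each of 4 groups. The raw deposited tables give each gene its exon length and, per library, an integer read count made by the authors. The submitters' processing notes name STAR, featureCounts, DESeq2 and the builds mm10 and hg38. Their settings, strand included, are not given in the sources used here. The authors' second table holds normalized values, a signal that equals the raw count over 1 constant per library (largest relative deviation 4.97e-10), and the log2 of each over the control mean. These normalized tables were used for gene symbols only, and no per-sample column was left unused.

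Members were found by symbol, and the members and gene lists were chosen with earlier results of these data known. Mouse positions and GC content come from GENCODE M21 (GRCm38). Raw counts were fitted in edgeR 4.0.16 (R 4.3.3), each experiment alone: filterByExpr, TMM scaling, glmQLFit and glmQLFTest, two-sided, Benjamini-Hochberg over all genes tested, threshold 0.05. SE is the size of the fold change (log2) divided by the root of the F statistic, and SD is over 3 libraries. Named with full values were, per experiment, the 8 largest called increases and decreases at a mean of at least 5 CPM, the most abundant member of each role, paralog pairs and the 5 smallest interaction p-values, and other members a comparison turns on, chosen after their values were seen. Tested on simulated data, the mouse fit recovered 12 of 100 genes changed by 1.25-fold and 95 of 100 changed by 2-fold with 8 false calls among 14603 genes tested, and the human fit 68 and 100 with 6 among 19722. Simulated counts were drawn for each gene on its own. They lack the deviations that many genes share in the mouse libraries, so the mouse figures may not hold for the real fit. Alternatives were RLE, upper-quartile and total-count scaling, other filters, DESeq2 1.42.0, a replicate block, each library left out, and, added after seeing the data, a GC offset and a fit without 2 mouse libraries.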

Additional observations from a re-analysis of the deposited data

Results flagged for a closer look

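The change of 12 members differed between the mouse and human experiments by the interaction test and stood out either by the 5 smallest p-values or by opposite calls in the experiments. Differences are mouse minus human log2 fold changes. The 5 with the smallest p were EIF4EBP2 (1.11), EIF4G2 (1.15), EIF5B (0.90), EIF3K (-0.54) and EIF1AX (0.83). Called in opposite directions were EIF4A2 (-0.65), EIF5 (0.53), EEF1D (-0.45), EIF4G3 (0.45), EIF3D (-0.30), EIF4E3 (1.90) and EIF3A (-0.22). The value for EIF4E3 rests on levels near 1 CPM in the human cells.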

How the results depend on the processing

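Human counts of called members stayed within 1.5 times of 21 higher and 27 lower in every alternative run, and so did the 35 called differences between experiments (17 above, 18 below). The 27 lower mouse members under the GC offset and 26 without both WT replicate 3 and cKO replicate 2 compare with 17 as reported. Lower mouse calls were 10 with upper-quartile factors and 7 with total counts, which left 11 called in all. Higher mouse calls were 2 with no filter and 1 with DESeq2, against 4. Leaving out each library in turn gave 9 to 21 mouse calls, 1 to 4 higher and 8 to 19 lower. The mouse median of -0.11 became -0.122 with RLE factors or DESeq2, -0.081 with upper-quartile factors, -0.041 with total counts and -0.123 with no filter, and -0.105 to -0.076 with a library left out. The human median of -0.09 became -0.02 with upper-quartile factors, -0.118 with total counts and -0.064 where each library had to hold 10 counts or more, and -0.089 to -0.064 with a library left out. The cause of these shifts was not tested. Of 32 human results for single named members 2 lost a call in some alternative, and 10 of 32 mouse ones did. Among these 64, 0 called values changed sign. The 32 of each experiment include members without a call, which had none to lose. Over all called members, 1 of 4 higher and 6 of 17 lower mouse calls held in every alternative planned beforehand. In the human cells 19 of 21 higher and 22 of 27 lower calls did. In the replicate block fit 3 mouse members were higher and 16 lower, 21 human ones higher and 27 lower, and 35 interaction differences were called. Same-numbered libraries correlated in their deviations at 0.32, -0.18 and 0.01 in the mouse and at -0.01, 0 and 0 in the human experiment. No pairing by number was visible across the libraries, and not every sample correlated best with its own number. In the mouse, WT replicate 3 and cKO replicate 2 correlated at 0.41. Such a shared pattern could hide a pairing, so these values cannot decide whether samples were paired. Depth limits the members near 1 CPM, such as EIF4E3 and EIF4EBP3, and the mouse spread limits changes near 1.25-fold.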
